A study of Drosophila melanogaster with 14 samples.

Results

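Sox21a is a transcription factor (TF) of the progenitor cells in the adult Drosophila midgut. This report describes the Sox21a binding peaks that lie within genes and had high RNA polymerase II (Pol II) occupancy in progenitors but low occupancy in enterocytes (ECs), here called progenitor-biased peaks. They were chosen by their Pol II values. A deposited Sox21a peak was taken as genic when its midpoint lay in a gene of the Release 6 annotation, and the mean Pol II occupancy over the peak was computed in each cell population. A genic peak was kept when its mean was at or above the median of all genic peaks in progenitors and below the median of all genic peaks in ECs. Of 2769 Sox21a peaks, 2294 were genic, and 373 of these were progenitor-biased. The same medians divided the other genic peaks into 774 that were high in both populations, 373 that were enterocyte-biased and 774 that were low in both. These class names refer to the medians only, and not to which population had more Pol II at a peak.

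The midgut epithelium is renewed by intestinal stem cells (ISCs). They give rise to enteroblasts (EBs), which differentiate into absorptive ECs, and to secretory enteroendocrine cells. Sox21a belongs to the Sox family, whose members bind DNA through a high mobility group domain, and it is required for normal stem cell proliferation and for the differentiation of EBs. Pol II occupancy along a gene is used as a measure of its transcription.

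Binding was measured by targeted DamID in dissected adult midguts. In this method a bacterial adenine methylase (Dam) is fused to the protein of interest and expressed at a low level in chosen cells, and methylated GATC sites near the bound protein are recovered without isolating the cells. Dam-Pol II was expressed in ISC/EBs with the esg driver (2 samples) and in ECs with the myo driver (2 samples). Dam-Sox21a was expressed in ISC/EBs (3 samples), and the sample titles do not name its driver. Each had matched samples with Dam alone (2, 2 and 3). All values are log2 ratios of the fusion over Dam alone, averaged by the authors over the samples of an experiment, so that no spread between samples could be computed and no difference below carries a test. The esg driver does not separate ISCs from EBs, and each ratio is a bulk value in which fewer cells and less Pol II per cell cannot be told apart. Neither the age and sex of the flies nor the duration of expression is stated in the sources used here.

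The driver populations were checked against marker genes. All of 11 ISC/EB marker genes had a gene-wide Pol II difference (ISC/EB minus EC) of at least 1 on the log2 scale, against 9.89% of the 17791 genes with a value, and their gene-wide median was 2.14 in ISC/EBs, against -0.15 in ECs. The markers esg, sc, Sox21a, Pvf2 and Delta were also among genes that the study selected on these Pol II data. Their values are therefore not an independent check. For 50 digestive and brush border genes of ECs, the median was 0.03 in ISC/EBs, against 1.66 in ECs. The medians of 18 enteroendocrine genes (-0.01 in ISC/EBs and -0.07 in ECs), 15 visceral muscle genes (0.01 in both) and 10 hemocyte genes (-0.06 in ISC/EBs and -0.05 in ECs) were near 0. Over the same 383654 GATC fragments, the SD was 0.86 for Pol II in ISC/EBs and 0.65 for Pol II in ECs.

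The progenitor-biased peaks had a median Pol II occupancy of 2.77 in ISC/EBs (range 2.50 to 3.74) and of 0.65 in ECs (-0.87 to 1.33). These ranges follow from the rule. The cut in ISC/EBs, 2.50, was at percentile 95.3 of all fragments of that track, and the cut in ECs, 1.33, at percentile 92.4 of its own. A value below the median in ECs is therefore low only in relation to other Sox21a peaks. Of the 373 peaks, 109 still had an EC value of 1 or more while 104 were below 0. The other class names are relative too. Peaks low in both populations had medians of 1.97 in ISC/EBs and 0.45 in ECs. Enterocyte-biased peaks had a higher median in ISC/EBs (2.21) than in ECs (1.81). At the progenitor-biased peaks the difference between the populations had a median of 2.19. It was at least 2 in 225 of them, beside 17.5% of all genic Sox21a peaks. It was at least 1 in all 373 peaks, an outcome that the cuts fixed in advance, and in 56.7% of all genic peaks. Among peaks low in both populations the difference had a median of 1.42. It was at least 1 in 76.2% and at least 2 in 22.7% of that class. After quantile normalization of the Pol II tracks, which removed their difference in spread, the median difference of the progenitor-biased peaks was 1.60. Peaks next to the cuts were nearly alike on either side. At the ISC/EB cut, the peaks in fra (2.502), lncRNA:CR43334 (2.502) and Tlk (2.505) were just inside, and those in Dg (2.499), in Glut4EF and CG46467 (2.497) and in Rgl (2.497) just outside. At the EC cut, peaks in ClC-c, tws and Tlk (each 1.328 to 1.329) were just inside, and peaks in lncRNA:CR46015 (1.332), lncRNA:CR32773 (1.335) and SMSr (1.339) just outside.

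**Figure D1:**
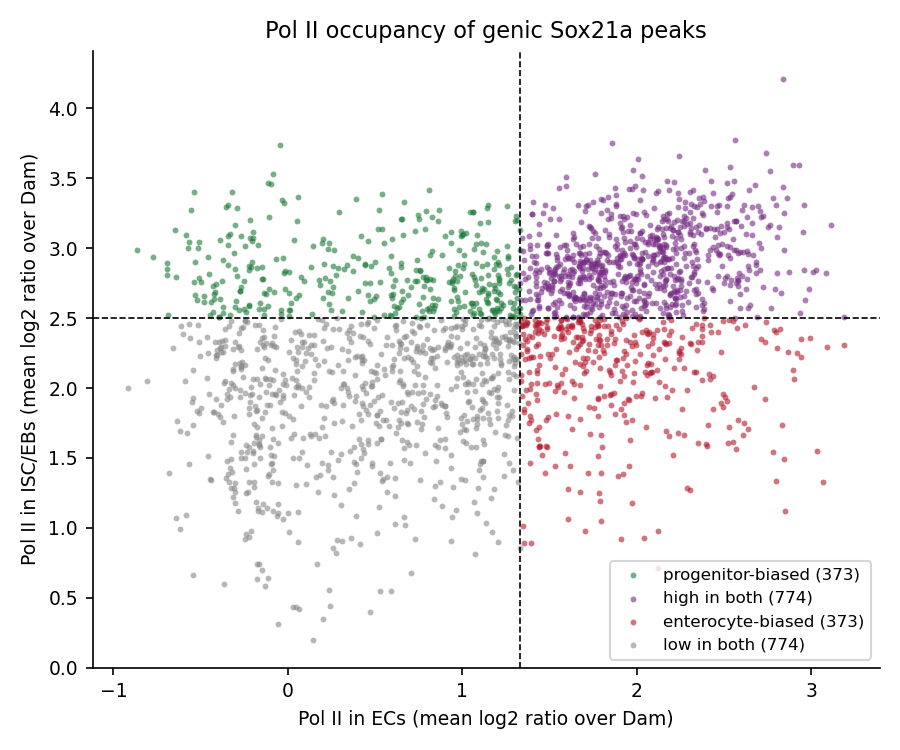
Mean Pol II occupancy in ISC/EBs (vertical axis) and ECs (horizontal axis) of the 2294 genic Sox21a peaks, as log2 ratios over Dam, with dashed lines at the medians, 2.50 and 1.33. Each point is a peak. The 373 progenitor-biased peaks fill the upper left field and reach down to an EC value of -0.87, and many of them lie close to either line.

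The strength of Sox21a binding was not used in the selection. Progenitor-biased peaks had a median Sox21a peak score of 2.37 (quartiles 2.12 and 2.58), against 2.35 in peaks high in both populations, 2.10 in enterocyte-biased peaks and 2.08 in peaks low in both. The score therefore differed between peaks with high and low Pol II in ISC/EBs and hardly between the peaks with high Pol II in ISC/EBs that were low or high in ECs. When genic peaks were split into 4 groups at the quartiles of ISC/EB Pol II, the median score of peaks below the EC cut was 1.95, 2.20, 2.32 and 2.40 from the lowest to the highest group. At or above the EC cut it was 1.99, 2.18, 2.27 and 2.39. Over the 2294 genic peaks, the Spearman correlation of the score was 0.33 with Pol II in ISC/EBs and 0.08 with Pol II in ECs. These are correlations across peaks, which are not independent replicates, and the Sox21a and ISC/EB Pol II experiments were both made in ISC/EBs. The excess of 0.18 in the median score over all other genic peaks was -0.12 when both Pol II cuts were set at 0. All genic peaks were above 0 in ISC/EBs, so that setting selected on EC Pol II alone. Among the 373 progenitor-biased peaks alone the score and ISC/EB Pol II had a correlation of 0.08.

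The progenitor-biased peaks were longer than the other genic peaks, with a median length of 2974 bp and 8 GATC fragments, against 2413 bp and 7 fragments in the others. With both Pol II cuts set at 0, the peaks chosen were shorter by the same measure, with a difference of -121 bp. That setting selects on EC Pol II alone. The score was also related to peak length, with a Spearman correlation of 0.42 among progenitor-biased peaks and 0.45 among all genic peaks, and the part of length in the difference in score was not tested. Another Sox21a peak lay within 10 kb of 276 progenitor-biased peaks (74.0%), against 66.2% of the other genic peaks, and the median gap to the nearest peak was 3387 bp for progenitor-biased peaks and 4680 bp for the others. Pairs of consecutive genic peaks at most 10 kb apart were also counted, each pair once. A progenitor-biased peak was paired with a peak low in both populations in 128 pairs and with one high in both in 79. It was paired with another progenitor-biased peak in 50 pairs and with an enterocyte-biased peak in 24. The classes low in both and high in both hold 774 peaks each, and the others 373 each. The peaks were spread over the genome, with 49 on chromosome 2L, 75 on 2R, 83 on 3L, 90 on 3R, 3 on 4 and 73 on X. The share on X, 19.6%, was close to that of all genic peaks, 20.5%.

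Progenitor-biased peaks tended to lie inside long genes. Their host gene, the gene with the peak midpoint, had a median length of 22748 bp, against 8529 bp for peaks high in both populations, 12690 bp for enterocyte-biased peaks and 28142 bp for peaks low in both. An end of the host gene lay inside 122 progenitor-biased peaks (32.7%), against 54.5% of peaks high in both, 38.3% of enterocyte-biased peaks and 25.7% of peaks low in both. The gene table gives no strand or exons, so a start could not be told from an end, nor an exon from an intron. By host length the progenitor-biased peaks were thus nearest to peaks low in both populations, by the share that covers a gene end they lay between those and enterocyte-biased peaks, and by Sox21a score they were nearest to peaks high in both. A protein-coding gene hosted 365 of the 373 peaks. The midpoint lay in 2 or more genes in 31 peaks, and 102 peaks touched a further gene. DamID has no strand, so overlapping genes share the same fragments and cannot be told apart.

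**Figure D2:**
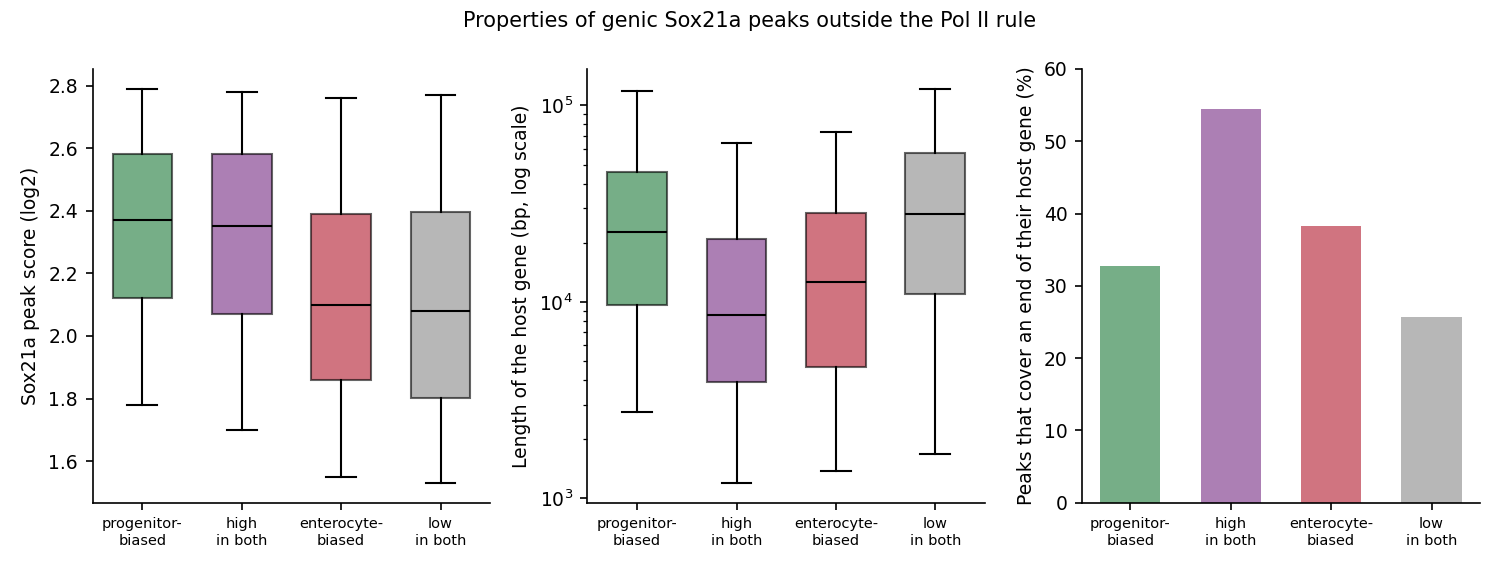
Sox21a peak score, length of the host gene (log scale) and share of peaks that cover an end of their host gene, for the 4 Pol II classes of genic Sox21a peaks. Boxes span the quartiles with the median as a line and whiskers reach percentiles 5 and 95. Progenitor-biased peaks have a median score of 2.37 and a median host length of 22748 bp, and 32.7% of them cover a gene end.

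The same tendency was seen within the progenitor-biased peaks. The 104 peaks with EC Pol II below 0 had a median host length of 33240 bp, and 17.3% of them covered an end of the host gene. For the 160 peaks with EC Pol II from 0 to 1, these values were 22411 bp and 30.0%. For the 109 peaks with EC Pol II of 1 or more, they were 16995 bp and 51.4%. In the same order, the ISC/EB Pol II medians were 2.82, 2.77 and 2.73, and the median scores were 2.33, 2.31 and 2.42. Median peak lengths were 2746, 2997 and 3184 bp, and the part of peak length in the share that covered a gene end was not tested.

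Around the midpoints of progenitor-biased peaks, ISC/EB Pol II formed a narrow maximum over Sox21a. The median Sox21a ratio was 2.25 at the midpoint, 1.05 and 1.14 at 2 kb to the left and right, and 0.31 and 0.28 at 10 kb. The median ISC/EB Pol II ratio was 3.11 at the midpoint, 1.73 and 1.55 at 2 kb, and 0.43 and 0.51 at 10 kb. The median EC Pol II ratio was 0.50 at the midpoint and at most 0.05 at 2 kb. Values near the midpoint were those on which the peaks were selected, whereas the flanks beyond the peak were not.

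**Figure D3:**
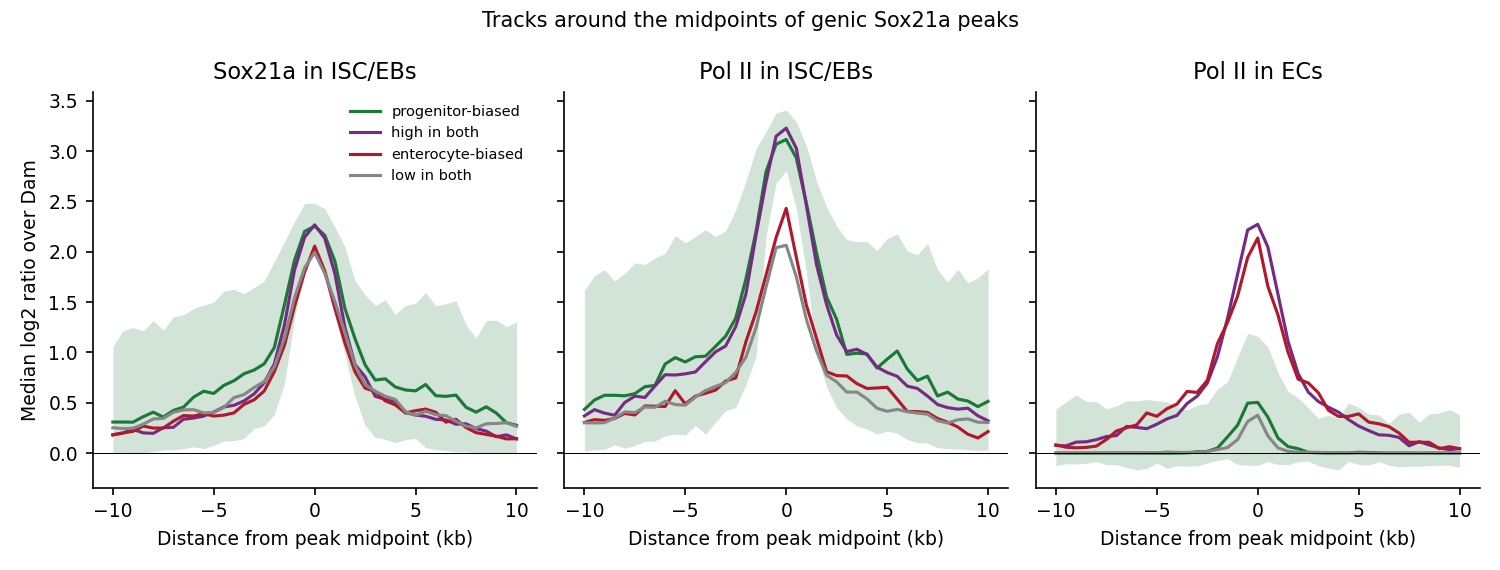
Median log2 ratio over Dam within 10 kb of the midpoints of genic Sox21a peaks, for Sox21a in ISC/EBs, Pol II in ISC/EBs and Pol II in ECs. Values were read at points 500 bp apart, each from the GATC fragment that contains the point. Lines are the 4 Pol II classes and the green band spans the quartiles of the progenitor-biased peaks. In these peaks the ISC/EB Pol II median is 3.11 at the midpoint, and the EC Pol II median is 0.50.

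Pol II in the rest of the host gene was measured over its fragments outside all Sox21a peaks. At least 5 such fragments remained for 344 progenitor-biased peaks. Peaks with the same host share the same value of this measure, so a gene with several peaks is counted several times. Median occupancy of the rest of the host was 0.77 in ISC/EBs, against 0.01 in ECs, and it was higher in ISC/EBs than in ECs for 331 of 344 peaks (96.2%), against 76.8% of other genic peaks. Among peaks low in both populations this share was 89.9%, with medians of 0.54 in ISC/EBs and 0.06 in ECs, so a higher value in ISC/EBs outside the peak was common to both classes with low EC Pol II. In ECs, where the selection favored low values in the peak, occupancy was higher in the peak than in the rest of the gene for 240 of 344 peaks (69.8%), against 83.5% of other genic peaks, with a median gain of 0.41 against 0.90. The gain in ISC/EBs had a median of 1.98, and the selection for high values in the peak favored it. Occupancy in ISC/EBs was also higher in the peak for 98.0% of peaks low in both populations and 98.8% of enterocyte-biased peaks. Their median gains were 1.32 and 1.49. Among peaks high in both populations the median gain was 2.03, so the gain was not particular to progenitor-biased peaks.

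The 373 peaks had 342 host genes, or 1.92% of the 17791 genes, while 9.95% of genes hosted a Sox21a peak of any class. Gene-wide Pol II was higher in ISC/EBs than in ECs in 340 of 342 hosts (99.4%), against 84.5% of the genes that hosted only other Sox21a peaks and 65.3% of all genes. It was higher by at least 1 in 189 hosts (55.3%), against 16.3% of these 1429 genes and 9.89% of all genes. Gene-wide values include the fragments of the peak and so are not independent of the selection. The hosts had a median of 1.39 in ISC/EBs, against 0.21 in ECs, whereas the genes that hosted only other peaks had 1.47 in ISC/EBs, against 0.99 in ECs. Another class of peak was also present in 162 hosts, most often a peak low in both populations (119 hosts), then a peak high in both (56) and an enterocyte-biased peak (22).

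The progenitor-biased peak with the highest Sox21a score, 3.09, lay in Gmap, which encodes a Golgi microtubule-associated protein (chrX:15487181-15491713, Pol II 2.76 in ISC/EBs and 0.24 in ECs). Further high scores were 3.07 at a peak shared by CG30269 and CG30273 and 2.93 in sbb, which encodes a transcriptional corepressor. The peak in spi, which encodes the EGFR ligand Spitz, scored 2.90 (chr2L:19569385-19573713, Pol II 2.85 in ISC/EBs and 0.32 in ECs). Scores of 2.81 to 2.89 were found in Mgat4a, Tet, wake, Ptpmeg with mthl10, mamo, Oatp30B, ph-d, Lrch, sima and apt. At the other end were peaks in Tmtc3 (1.36) and, again, Tet (1.46). Tet encodes the fly member of the TET dioxygenase family, and its peaks therefore spanned nearly the whole range of scores.

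The largest Pol II difference, 3.94, was at a peak in zfh2, which encodes a zinc finger and homeodomain TF (chr4:501373-506103, Pol II 3.40 in ISC/EBs and -0.54 in ECs, score 2.66). It was followed by the peak of lowest EC Pol II, in Tet (chr3L:2852786-2853231, Pol II 2.99 in ISC/EBs and -0.87 in ECs), and by peaks in CG17002 (3.83), in Hs6st (3.78), which encodes a heparan sulfate sulfotransferase, and in CG42238 (3.78). The peak in CG42238 had the highest ISC/EB value of all 373, 3.74. Differences from 3.65 to 3.73 were seen in Ih, which encodes a hyperpolarization-activated channel, Ccdc85, Mrtf, a coactivator of serum response factor, Sox21a and pain, which encodes a TRP channel. The smallest differences were in sima, the fly HIF-alpha gene (1.20, from 2.53 in ISC/EBs and 1.33 in ECs), and svr, which encodes a carboxypeptidase (1.21). The sima peak was the longest progenitor-biased peak, at 14613 bp.

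**Figure D4:**
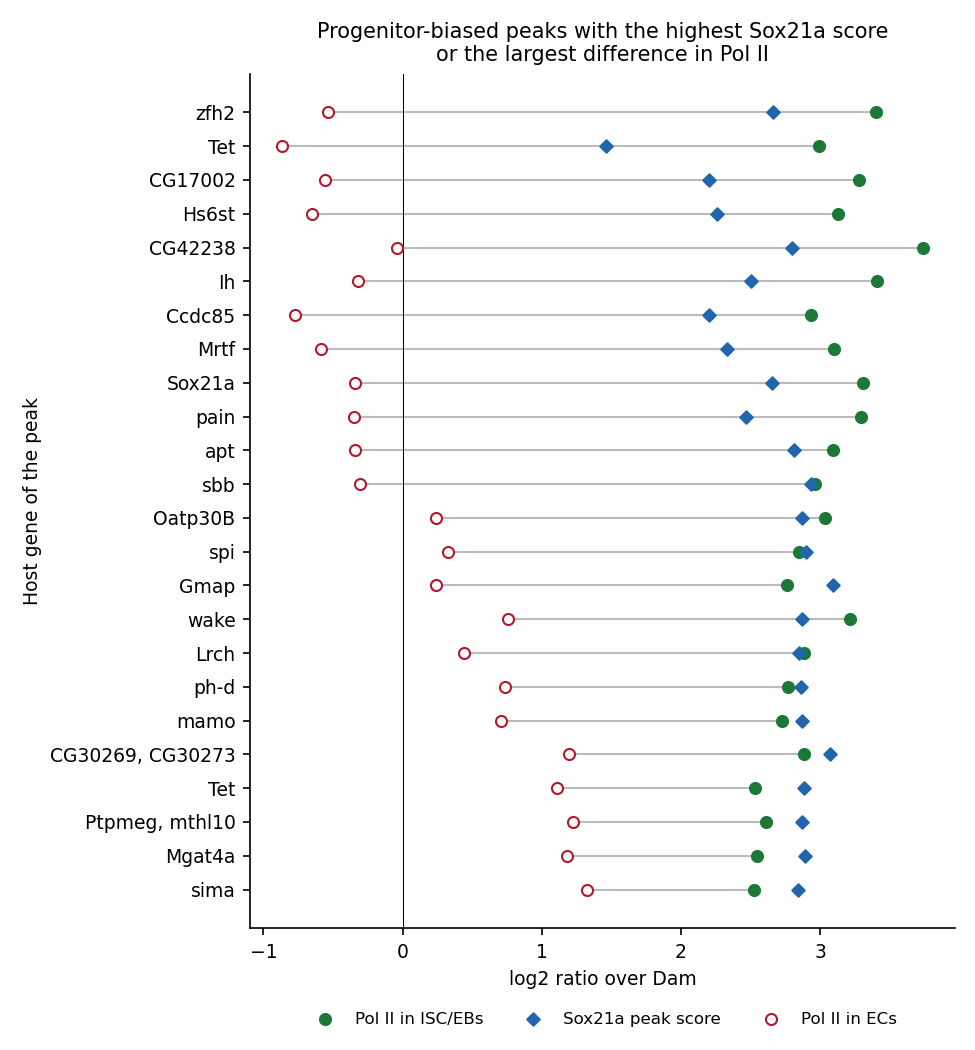
Pol II in ISC/EBs (filled circles), Sox21a peak score (diamonds) and Pol II in ECs (open circles) of 24 progenitor-biased peaks among the 15 with the highest score and the 10 with the largest Pol II difference, sorted by that difference. Values are log2 ratios over Dam. The EC value is below 0 in 12 of the 24 peaks, from zfh2 down to sbb, and the score exceeds ISC/EB Pol II in 9.

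Several genes held more than 1 progenitor-biased peak, and 49 of 342 hosts had 2 or more. The headcase gene, heca, had 8 among its 9 Sox21a peaks, over a gene of 94451 bp (chr3R:30277932-30372382). Their ISC/EB values were between 2.68 and 3.35 and their EC values between -0.69 and 0.39, and the remaining peak was low in both populations with 2.33 in ISC/EBs, below the cut, and -0.16 in ECs. The alpha PS1 integrin gene mew had 4 of 7 and Tet 4 of 5. There were 3 each in zfh2, Tlk, Mrtf, CG3638, Dscam1, lncRNA:CR44357 and sty. The last encodes Sprouty, an antagonist of receptor tyrosine kinase signaling, and its peaks had some of the highest ISC/EB values, 3.37, 3.42 and 3.46. Peaks of 1 gene share its transcription and are not independent observations of it.

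Among the 11 ISC/EB-specific TFs that the study selected on these Pol II tracks, 5 hosted progenitor-biased peaks, beside 1.92% of all genes. Because of that selection, their direction is not independent evidence. The Sox21a gene itself carried 1 peak over its entire length (chr3L:14102757-14109299), with a score of 2.65 and a Pol II ratio of 3.31 in ISC/EBs, against -0.35 in ECs. The Dam-Sox21a transgene carries Sox21a coding sequence, and its part in this score was not tested. The peaks of zfh2 were joined by 2 in apt, which encodes a DNA-binding developmental regulator (scores 2.81 and 2.31, ISC/EB Pol II 3.09 and 2.86), 1 in Sox100B, another Sox TF (score 2.07, ISC/EB Pol II 3.03), and 1 in the forkhead TF gene jumu (score 2.10, ISC/EB Pol II 2.66). EC Pol II at these 8 peaks was between -0.70 and 0.13. No Sox21a peak touched CG11247, sc or z, and the peak touching CG30403 had its midpoint in HmgD and was high in both populations.

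Both ligand and receptor genes were among the hosts. Of 40 ligand genes, 5 hosted a progenitor-biased peak and 12 any peak, and of 27 receptor genes 5 hosted a progenitor-biased peak and 14 any peak, beside 1.92% and 9.95% of all genes. The median gene length was 7240 bp for ligands and 14278 bp for receptors, against 1694 bp for all genes, and the part of length in the counts of this and the other lists was not tested. Besides spi, the ligand genes were egr, the fly TNF (score 2.78, Pol II 2.76 in ISC/EBs and 0.97 in ECs), Ilp6, an insulin-like peptide, whose peak also lay in Raf (2.77, with Pol II 2.80 in ISC/EBs and -0.64 in ECs), ths, an FGF (1.65, with 2.79 in ISC/EBs and -0.51 in ECs), and sli, the Robo ligand (2.13, with 2.77 in ISC/EBs and 0.61 in ECs). The ths peak had the lowest score of 3 in that gene, and the others were low in both populations. Those scored 2.53 and 2.49, with 0.81 and 2.32 in ISC/EBs and 1.07 and 0.64 in ECs. Gene-wide Pol II at ths was 0.51 in ISC/EBs and 0.16 in ECs. The insulin-binding protein gene ImpL2, a gene outside the ligand list, hosted a peak shared with CG46460 (2.17, with 2.57 in ISC/EBs and 0.80 in ECs). The study had named spi, egr, Ilp6, ths and ImpL2 from these experiments. Of the other ligand genes it named, Delta had 1 peak and Pvf2 had 2, all low in both populations with ISC/EB values of 2.36, 2.19 and 2.35, near but below the cut. A peak touching upd3, the JAK/STAT ligand gene, had no gene at its midpoint. Its Pol II was 2.94 in ISC/EBs and 2.13 in ECs, the latter above the EC cut of 1.33. The receptor genes were robo2, Egfr, N (Notch), dome, the JAK/STAT receptor, and fz3, a Frizzled. The peaks in robo2 had ISC/EB Pol II of 3.09 and 3.07 and EC Pol II of -0.27 and -0.22, and those in Egfr 2.76 and 3.04 in ISC/EBs and -0.54 and -0.56 in ECs. In N, which directs EBs to the EC fate, adjacent peaks had 3.07 and 2.67 in ISC/EBs and 0.20 and -0.43 in ECs.

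The EGFR and Ras pathway had progenitor-biased peaks in 7 of 22 genes, with 12 peaks, and a Sox21a peak of any class in 13, beside 1.92% and 9.95% of all genes. The median gene length of this list was 16768.5 bp. The hosts were the ligand gene spi, the receptor gene Egfr, csw, which encodes a phosphatase downstream of the receptor, the kinase gene Raf, the ETS effector gene pnt, the repressor gene cic and the feedback antagonist gene sty. The peaks in pnt had scores of 2.73 and 2.54, with ISC/EB Pol II of 3.19 and 2.68 and EC Pol II of 1.15 at both, and the peak in csw had 3.26 in ISC/EBs and 1.04 in ECs. In the Notch pathway 2 of 25 genes were hosts, N and neur, which encodes an E3 ligase for Delta (score 2.81, Pol II 2.90 in ISC/EBs and 1.20 in ECs). In the JAK/STAT pathway 2 of 10 were, dome and the feedback gene Socs36E (2.59, with 2.69 in ISC/EBs and 1.21 in ECs).

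Growth control and cell cycle genes that were hosts had EC values from 0.84 to 1.19, above the median of all progenitor-biased peaks (0.65). The hosts among 25 insulin, TOR and Hippo genes were the Hippo pathway genes kibra, ex and wts, with EC Pol II of 1.13, 0.84 and 1.13. The hosts among 29 cell cycle genes were CycE, E2f1 and fzr, the first 2 with scores of 2.42 and 2.59 and all 3 with EC Pol II between 0.86 and 1.19. Of 28 chromatin regulator genes, the hosts were the neighboring Polycomb genes ph-d (score 2.86) and ph-p (2.59), although 12 genes of this list hosted a peak of any class. Of all genes, 1.92% hosted a progenitor-biased peak and 9.95% a peak of any class. Median gene lengths were 7568 bp for the growth control, 2884 bp for the cell cycle and 10285.5 bp for the chromatin list, against 1694 bp for all genes.

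Among TF genes, 5 of 25 nuclear receptor and ecdysone cascade genes were hosts. The counts in this paragraph stand beside 1.92% of all genes. Median gene length was 22426 bp for this list, against 1694 bp for all genes. It was 10068.5 bp for the list of zinc finger and other factors and 9786 bp for the clock genes. The peaks in Eip75B (scores 2.77 and 2.54) and Eip74EF (2.61) had low EC Pol II, between -0.20 and 0.25, and those in EcR, Hnf4 and br, the last shared with Mur2B, had 0.95 to 1.07. All of these genes except br also held peaks of other classes, and EcR had 1 progenitor-biased peak among 7. Of 46 zinc finger, bHLH, bZIP, ETS and GATA factor genes, 8 were hosts, with the highest scores in lola (2.78, at a peak shared with asRNA:CR45135), bowl (2.75) and pnt. Of 10 clock genes, vri (2.67) and cry (2.03) were hosts, whereas cyc was touched only by a peak with no gene at its midpoint.

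Adhesion, guidance and matrix genes had 12 hosts of 34 with 19 peaks, and RNA-binding protein genes had 9 hosts of 24 with 11 peaks, against 1.92% of all genes. Both lists hold long genes, with median lengths of 32264 and 53654 bp against 1694 bp for all genes. The first group included the genes of 3 laminin chains, LanA (score 2.67, Pol II 3.29 in ISC/EBs and -0.29 in ECs), LanB1 (2.39, with 3.14 in ISC/EBs and 0.52 in ECs) and LanB2 (2.32, with 2.89 in ISC/EBs and 0.21 in ECs). It also included the integrin genes mew and scb, with a score of 2.79 at the stronger scb peak, rhea, which encodes talin (2.71), the E-cadherin gene shg (2.62), and Nrg, Dscam1, robo2, fra and sli. The RNA-binding group included the translational repressor genes pum (score 2.63, Pol II 3.12 in ISC/EBs and -0.20 in ECs) and brat (2.62, with 2.54 in ISC/EBs and -0.37 in ECs), lin-28 (2.37, with 2.65 in ISC/EBs and 0.04 in ECs), Imp (2.39), cpo, shep, bru2 and heph, the last at a peak shared with CG2003. It also included elav, a gene of neurons, whose peak lay as well in arg and lncRNA:enrr.

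Marker genes of the cell types were hosts as follows. Of 11 ISC/EB marker genes, 4 were hosts, Sox21a, robo2, N and lin-28, beside 1.92% of all genes. None of the 50 EC genes was a host, although 5 hosted another Sox21a peak, and these genes are short, with a median of 973 bp. Of 18 enteroendocrine genes the only host was ITP, with 2 peaks shared with CG4622 (ISC/EB Pol II 2.88 and 2.59, EC Pol II -0.22 and 0.61). Of 15 visceral muscle genes the only host was the TF gene Mef2 (score 2.14, Pol II 2.64 in ISC/EBs and 0.83 in ECs), and none of 10 hemocyte genes was. In all, 64 of 454 distinct genes on the lists were hosts, and they accounted for 84 of the 373 peaks.

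**Figure D5:**
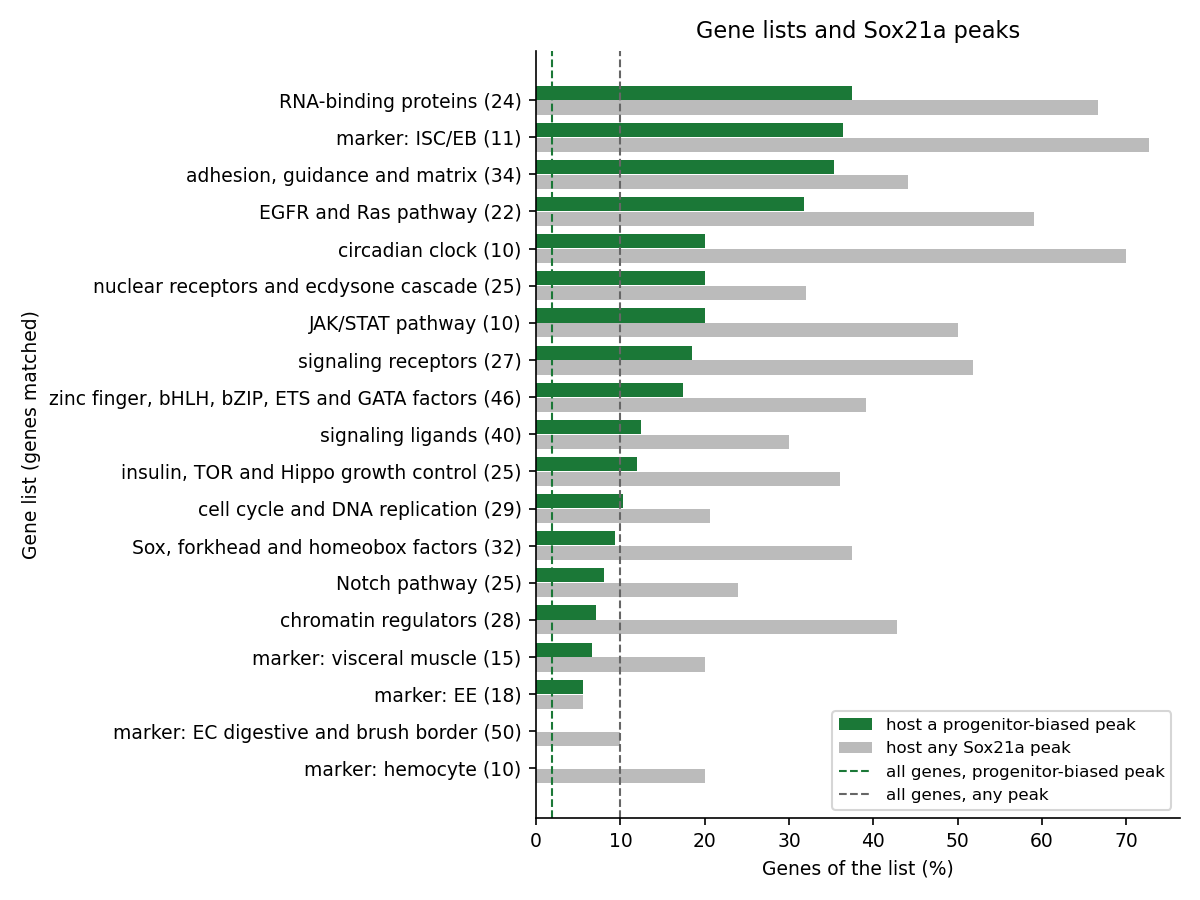
Share of the genes on each list, the lists taken from the study's own selection left out, that host a progenitor-biased Sox21a peak (green bars) or any Sox21a peak (gray bars), with the number of genes in parentheses. Dashed lines give the shares among all genes, 1.92% and 9.95%. The RNA-binding, ISC/EB marker, adhesion and EGFR lists have the highest shares among those plotted with a progenitor-biased peak, and no EC or hemocyte gene hosts one.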

How the data were processed

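The authors deposited Sox21a peaks, called at an FDR below 0.01 and scored in log2 units, and tracks of log2 ratios (fusion over Dam) per GATC fragment, 1 per experiment, averaged over samples. The sources used here name no aligner, normalization between libraries, peak caller or version. Reads were not used, so depth per sample and counting error were not determined. Averaging hides samples that stand apart.

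Peak, gene and host means were weighted by fragment length inside the interval (median fragment 197 bp). Positions are those of Release 6, from the RefSeq gene table, in which Dl, Tor and nos are listed as Delta, mTor and nanos. No low-value filter was applied, and with averaged tracks no test was made. The mean was tested on simulated data and was equal to a direct computation in 200 of 200 intervals. Python 3.11.15, numpy 2.4.6, pandas 2.3.3 and scipy 1.17.1 were used.

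Genes named were hosts of the 15 highest and 2 lowest scores, of the 10 largest and 2 smallest Pol II differences, the 10 genes with most progenitor-biased peaks, hosts on gene lists (up to 5 a list with values), genes the study names, and the 3 peaks on either side of each cut. A result at 1 of these hosts is not reported here. Other named hosts were added after their values were seen. The peaks and the lists were chosen with earlier results of these data known. The alternatives changed the overlap, weights, fragments, gene types, score and Pol II cuts and the scaling of the tracks.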

Additional observations from a re-analysis of the deposited data

How the results depend on the processing

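Under 12 alternatives the median Pol II difference (2.19) was between 1.60 and 2.52, and the share on X between 16.6% and 20.4%. Quantile normalization of the Pol II tracks, which removes their difference in spread, retained 365 of the 373 peaks. An unweighted mean retained 270 and a median over fragments 271. With only peaks scoring at or above the median of all Sox21a peaks, 192 peaks in 186 genes were progenitor-biased, the median score was -0.005 relative to other genic peaks (0.18 with all peaks) and the length excess was 210.5 bp (561 bp). With a cut at 0 in both tracks, 332 peaks met the rule and shared 104 with the 373. The score difference was then -0.12 and the length difference -121 bp. All genic peaks were above 0 in ISC/EBs (minimum 0.20), so this cut selected on EC Pol II alone. Neither the excess in score nor that in length was present under the cut at 0, which does not test a rule that also requires high ISC/EB Pol II. The first of these alternatives selects on the score itself and narrows any difference in it. Taking peaks with 1 bp or more in a gene gave 422 peaks with 543 hosts. Peaks with most of their length inside genes were 391, with 521 hosts, against 373 and 342. In both alternatives every gene that a peak touched was counted as a host, not only genes with the midpoint, so the host numbers have unlike definitions. With 1 peak per host gene, an alternative chosen after seeing the data, 247 peaks met the rule.

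No paired analysis was possible because the deposited tracks are averaged over replicates, and leaving out single replicates was not run for the same reason. Differences between tracks are therefore given without the spread between samples.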

Other observations

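Some Sox21a peaks with no gene at their midpoint had Pol II values like those of the progenitor-biased peaks. Of these, 2 flanked esg, the Snail family TF gene of ISC/EBs, which has a length of 2273 bp. Their Pol II ratios were 2.54 and 2.97 in ISC/EBs and -0.02 and -0.52 in ECs, with scores of 2.53 and 2.12, and both overlapped an end of the gene. A peak at cyc, the clock TF gene, had 3.50 in ISC/EBs and 0.63 in ECs with a score of 2.37. The highest score of all genic peaks, 3.58, was in Eip74EF at a peak with 2.45 in ISC/EBs and 0.97 in ECs, low in both by the cuts used, and the progenitor-biased peak of the same gene scored 2.61. These peaks were chosen after their values were seen.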
